A study of Mus musculus with 2 samples.

Results

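The genes described here were 9 genes of the smooth muscle contractile apparatus (*Acta2*, *Actg2*, *Myh11*, *Mylk*, *Myl9*, *Tagln*, *Cnn1*, *Lmod1* and *Tpm2*) and the oxytocin receptor gene *Oxtr*, in mammary epithelial cells (MECs) of lactating mice. They were picked as a set of symbols, and a gene was a member where its symbol equalled that of a row of the files. All 10 were found among the 25810 genes with a symbol, and all 10 had at least 1 read per 1000000 mapped reads (1 RPM) in both libraries. MECs had been isolated from inguinal mammary glands on lactation day 3 and depleted with magnetic beads of leukocytes (CD45), endothelial cells (CD31) and erythroid cells (Ter119), although the sample labels have CD35 where the methods have CD31. Poly(A) RNA of these cells was sequenced in 2 libraries, 1 from wild type (WT) mice and 1 from *Igfbp7*-/- mice, in which exon 1 of the gene for insulin-like growth factor binding protein 7 had been deleted in the embryonic stem cells that gave rise to the line. The labels give the background of both as C57BL/6, whereas the methods state that the knockout was generated on CD1, and neither source gives the age of the mice or how many contributed to a library. With 1 library per genotype, a difference between the libraries had no replicate check, and no test or standard deviation could be computed. The intervals given are exact 95% intervals on read pairs and cover counting error only.

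Milk leaves the alveoli when myoepithelial cells, the contractile basal layer of the mammary epithelium, squeeze them. Suckling releases oxytocin from the pituitary, and oxytocin binds its receptor on myoepithelial cells, which acts through Gq proteins and phospholipase C to raise cytosolic calcium. Calcium-bound calmodulin then activates myosin light chain kinase, which phosphorylates the regulatory light chain so that smooth muscle myosin pulls on actin filaments. The same contractile genes are expressed in vascular smooth muscle and in pericytes, and many of them are transcribed under serum response factor (SRF), which binds a DNA element called the CArG box, a run of A or T between a pair of C and a pair of G.

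Promoter sequences are shown for 4 contractile genes, because they include genes with large and small differences between the libraries and with and without CArG matches. The set of RefSeq promoters used here (GRCm38.p6) matched 7 of the 10 genes (*Acta2*, *Cnn1*, *Lmod1*, *Myl9*, *Mylk*, *Tpm2* and *Oxtr*). Each window of 250 bases before the start was placed by the single exact match of its promoter sequence on its own chromosome in NCBIM37. Capitals mark CArG boxes with at most 1 mismatch. The pattern, though not each site, is the same on both strands, so a search of 1 strand finds all matches. The lines run 5′ to 3′ and end where the annotated gene begins or at the RefSeq start.
*Acta2*, chr19:34329864-34330113, minus strand: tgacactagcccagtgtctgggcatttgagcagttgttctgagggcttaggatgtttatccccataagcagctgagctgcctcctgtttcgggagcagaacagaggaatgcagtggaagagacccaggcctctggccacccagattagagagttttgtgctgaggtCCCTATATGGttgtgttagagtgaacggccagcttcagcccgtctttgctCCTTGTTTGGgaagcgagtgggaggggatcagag
*Myl9*, chr2:156600950-156601155, plus strand: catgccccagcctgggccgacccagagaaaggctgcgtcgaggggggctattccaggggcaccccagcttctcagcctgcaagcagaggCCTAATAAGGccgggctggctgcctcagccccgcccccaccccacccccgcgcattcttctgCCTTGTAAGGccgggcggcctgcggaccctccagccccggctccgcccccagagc
*Lmod1*, chr1:137221140-137221383, plus strand: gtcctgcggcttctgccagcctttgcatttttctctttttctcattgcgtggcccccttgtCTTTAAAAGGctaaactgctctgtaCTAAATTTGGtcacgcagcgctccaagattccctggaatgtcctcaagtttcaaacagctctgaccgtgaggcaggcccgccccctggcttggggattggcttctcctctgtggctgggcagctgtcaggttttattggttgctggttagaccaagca
*Cnn1*, chr9:21903447-21903696, plus strand: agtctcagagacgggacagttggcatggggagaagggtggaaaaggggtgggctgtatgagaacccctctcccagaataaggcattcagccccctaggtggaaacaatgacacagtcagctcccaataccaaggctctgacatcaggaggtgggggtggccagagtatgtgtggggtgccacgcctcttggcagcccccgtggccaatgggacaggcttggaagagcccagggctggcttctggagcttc

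The *Myl9* window held the only exact CArG box among the 7 windows, CCTAATAAGG at -161 to -152 from the RefSeq start, and a second one with 1 mismatch, CCTTGTAAGG at -99 to -90. The *Acta2* window held CCCTATATGG at -84 to -75 and CCTTGTTTGG at -34 to -25, each with 1 mismatch. The *Lmod1* window held CTTTAAAAGG at -189 to -180 and CTAAATTTGG at -164 to -155, each with 1 mismatch. No match was found in the windows of *Cnn1*, *Mylk*, *Tpm2* and *Oxtr*, which says only that these letters are not in them. The *Mylk* and *Oxtr* windows lay wholly inside the annotated gene, and only 39 of the 250 bases of the *Tpm2* window lay before it. Of 32851 RefSeq promoter windows of the same length, 482 (1.47%) held an exact CArG box and 6117 (18.6%) one with at most 1 mismatch, so the looser match is common.

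The question here was how the contractile genes and *Oxtr* differed between lactating WT and *Igfbp7*-/- MECs. Of the 10 genes, 8 were lower in the *Igfbp7*-/- library by at least 1.5 times, none was higher by that much, and *Lmod1* and *Oxtr* were within 1.5 times. Among all 14026 genes with at least 1 RPM in either library, 23.0% were lower and 21.4% higher by at least 1.5 times. The log2 ratio, *Igfbp7*-/- over WT, was computed on RPM with 0.1 RPM added, and its median was -1.64 over the 10 genes and -1.92 over the 9 contractile genes, against 0.03 over all 14026 genes, whose quartiles were -0.52 and 0.51. Together the 9 contractile genes held 108260 reads (3154 RPM, 0.315% of mapped reads) in WT and 31854 reads (910 RPM, 0.0910%) in *Igfbp7*-/-, which was 3.47 times lower. The contractile genes did not move as 1 block, since their ratios ran from -2.94 to -0.50 on the log2 scale, a range that also held the ratios of 3447 genes (24.6% of those compared). In a bulk sample, fewer cells of a type and less RNA per cell cannot be told apart.

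**Figure D1:**
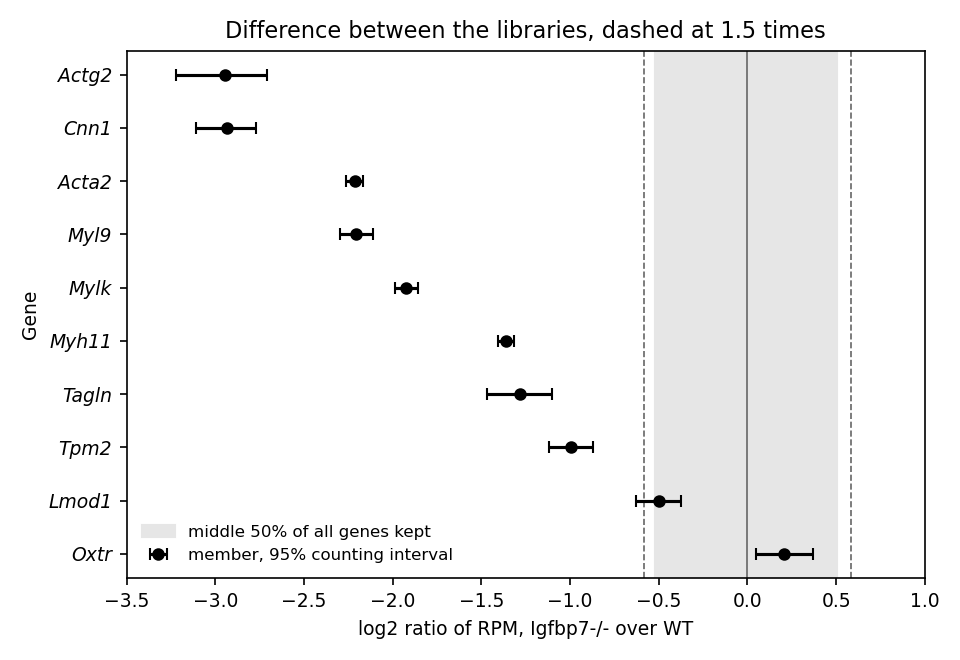
The horizontal axis is the log2 ratio of RPM, Igfbp7-/- over WT, and each point is 1 of the 10 genes with its 95% counting interval; the grey band holds the middle 50% of all 14026 genes and dashed lines mark 1.5 times. Points from Actg2 (-2.94) to Tpm2 (-0.99) lie left of the dashed line, the interval of Lmod1 crosses it, and Oxtr (0.21) lies inside the band.

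The targeted gene set the labels apart. *Igfbp7* had 5224 reads (152 RPM) in the WT library and 37 reads (1.06 RPM) in the *Igfbp7*-/- library. The libraries held 34327854 and 35016847 mapped reads, of which 82.3% and 72.3% lay on listed genes, so more of the RPM total of the *Igfbp7*-/- library came from reads off these genes.

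Actin forms the thin filament, and 2 members encode the smooth muscle actins. *Acta2*, which encodes alpha smooth muscle actin, the usual marker of myoepithelium, lies on the minus strand of chromosome 19 (NCBIM37, 34315580 to 34329826). It had 36129 reads (1052 RPM, 591 RPKM) in WT and 7938 reads (227 RPM, 127 RPKM) in *Igfbp7*-/-, where RPKM is RPM per kilobase of gene length. *Acta2* was thus 4.64 times lower in *Igfbp7*-/-, a log2 ratio of -2.21 (interval -2.26 to -2.17). Its place among expressed genes shifted too, as 53 genes had a higher RPKM than *Acta2* in WT and 253 had in *Igfbp7*-/-.

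*Actg2* encodes gamma smooth muscle actin, the form best known from the gut and other visceral muscle (chromosome 6, 83462899 to 83486259, minus strand). It had 2196 reads (64.0 RPM, 47.7 RPKM) in WT and 288 reads (8.22 RPM, 6.13 RPKM) in *Igfbp7*-/-. This was the lowest ratio of the 10 genes, 7.70 times lower (log2 ratio -2.94, interval -3.22 to -2.71), and only 1.13% of all genes compared had a ratio this low or lower. *Acta2* exceeded *Actg2* by 12.4 times in WT and by 20.8 times in *Igfbp7*-/- on the RPKM scale. The coding sequences of *Acta2* and *Actg2* are 84.2% identical. As exact matches, 1.71% of the 31-base words of the *Acta2* transcript and 1.38% of those of the *Actg2* transcript occur elsewhere in the genome. The authors allowed 3 mismatches in mapping, and words shared with mismatches were not counted.

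Myosin pulls on these filaments, and 3 members encode its heavy chain, its regulatory light chain and the kinase that switches it on. *Myh11*, which encodes the smooth muscle myosin heavy chain (chromosome 16, 14194620 to 14291501, minus strand), had 30310 reads (883 RPM, 133 RPKM) in WT and 12029 reads (344 RPM, 51.8 RPKM) in *Igfbp7*-/-. The library from *Igfbp7*-/- was 2.57 times lower (log2 ratio -1.36, interval -1.41 to -1.32). *Myh11* was therefore less reduced than *Acta2*, and the ratio of *Acta2* to *Myh11* RPKM was 4.44 in WT and 2.46 in *Igfbp7*-/-.

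*Myl9* encodes the regulatory light chain of smooth muscle myosin (chromosome 2, 156601156 to 156607394, plus strand). It had 10325 reads (301 RPM, 278 RPKM) in WT and 2283 reads (65.2 RPM, 60.2 RPKM) in *Igfbp7*-/-. Its 4.61-fold lower level in *Igfbp7*-/- (log2 ratio -2.20, interval -2.30 to -2.11) overlapped that of *Acta2* within counting error. *Mylk*, which encodes myosin light chain kinase (chromosome 16, 34745296 to 35002520, plus strand), had 17208 reads (501 RPM, 64.2 RPKM) in WT and 4629 reads (132 RPM, 16.9 RPKM) in *Igfbp7*-/-. It was 3.79 times lower (log2 ratio -1.92, interval -1.99 to -1.86). The *Mylk* gene also gives rise to shorter products, such as telokin, which a single value per gene does not separate.

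The remaining contractile genes encode proteins that bind the actin filament. *Cnn1*, which encodes calponin, an inhibitor of myosin ATPase found in mature smooth muscle (chromosome 9, 21903725 to 21914074, plus strand), had 4906 reads (143 RPM, 71.9 RPKM) in WT and 652 reads (18.6 RPM, 9.37 RPKM) in *Igfbp7*-/-. It was 7.64 times lower (log2 ratio -2.93, interval -3.11 to -2.77), and its interval overlapped that of *Actg2*. *Cnn1* and *Actg2* thus stood apart from the other 8 genes, none of whose intervals reached theirs.

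*Tagln* encodes transgelin, also called SM22 alpha, an early smooth muscle marker (chromosome 9, 45737711 to 45744141, minus strand). It had 1679 reads (48.9 RPM, 30.8 RPKM) in WT and 703 reads (20.1 RPM, 12.7 RPKM) in *Igfbp7*-/-, 2.43 times lower (log2 ratio -1.28, interval -1.47 to -1.10). Its end overlaps *Pcsk7* on the opposite strand by 65 bases, and the sources used here do not state whether counting used strand. *Tpm2*, which encodes beta tropomyosin, a rod along the actin filament (chromosome 4, 43527583 to 43536637, minus strand), had 3064 reads (89.3 RPM, 42.5 RPKM) in WT and 1569 reads (44.8 RPM, 21.4 RPKM) in *Igfbp7*-/-. It was 1.99 times lower (log2 ratio -0.99, interval -1.12 to -0.87), the smallest difference among the 8 genes past 1.5 times.

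*Lmod1* encodes leiomodin 1, which starts new actin filaments in smooth muscle (chromosome 1, 137221384 to 137264642, plus strand). It had 2443 reads (71.2 RPM, 18.1 RPKM) in WT and 1763 reads (50.3 RPM, 12.8 RPKM) in *Igfbp7*-/-, 1.41 times lower (log2 ratio -0.50, interval -0.63 to -0.37). This interval crosses the 1.5-fold line at -0.58, so the side on which *Lmod1* lies is within counting error. A U6 small nuclear RNA lies within it on the opposite strand over 106 bases.

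*Oxtr* encodes the oxytocin receptor, through which suckling reaches these cells (chromosome 6, 112423678 to 112440884, minus strand). It had 1200 reads (34.96 RPM, 7.65 RPKM) in WT and 1413 reads (40.4 RPM, 8.83 RPKM) in *Igfbp7*-/-. *Oxtr* was the only one of the 10 genes with a higher value in *Igfbp7*-/-, by 1.15 times (log2 ratio 0.21, interval 0.05 to 0.37), which was 0.17 above the median of all genes on the log2 scale, and 59.7% of genes had a ratio this low or lower. Its ratio to *Acta2* went from 1.29 RPKM of *Oxtr* per 100 RPKM of *Acta2* in WT to 6.94 in *Igfbp7*-/-. Most of this lay in *Acta2*, which was 4.64 times lower. The interval of *Oxtr* did not overlap that of any contractile gene.

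On the RPKM scale, which allows levels of different genes to be compared, the order in WT was *Acta2*, *Myl9*, *Myh11*, *Cnn1*, *Mylk*, *Actg2*, *Tpm2*, *Tagln*, *Lmod1* and *Oxtr*, and no neighbouring counting intervals overlapped. In *Igfbp7*-/- the first 3 places were the same, followed by *Tpm2*, *Mylk*, *Lmod1*, *Tagln*, *Cnn1*, *Oxtr* and *Actg2*. There the intervals of *Lmod1* (11.9 to 13.6 RPKM) and *Tagln* (11.4 to 14.1 RPKM) overlapped, as did those of *Cnn1* (8.38 to 10.4 RPKM) and *Oxtr* (8.19 to 9.51 RPKM). *Cnn1* moved from the fourth place to the eighth, and *Actg2* from the sixth to the last.

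**Figure D2:**
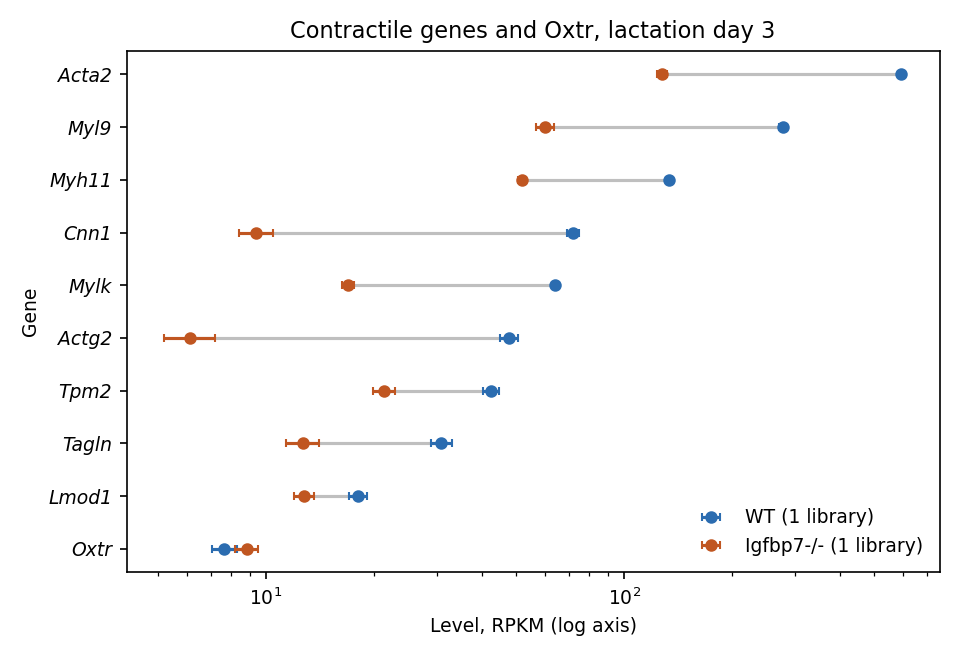
Each row is 1 gene, with its level in RPKM on a log axis in the WT library (blue) and the Igfbp7-/- library (orange); bars are exact 95% Poisson intervals on read pairs and grey lines join the libraries. Cnn1 (71.9 to 9.37 RPKM) and Actg2 (47.7 to 6.13 RPKM) have the longest lines, and the points of Oxtr (7.65 and 8.83 RPKM) lie next to each other in the reverse order.

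Most of these proteins belong to families with forms for nonmuscle or striated muscle cells, so the genes described here were also expressed as a share of their family's summed RPKM. The smooth muscle actins *Acta2* and *Actg2* made up 53.5% of actin RPKM in WT and 13.3% in *Igfbp7*-/-. *Actb*, the main nonmuscle actin, was at 1032 RPM in WT and 1602 RPM in *Igfbp7*-/- (log2 ratio 0.63), and *Actg1*, the other nonmuscle actin, was at 18.0 and 41.7 RPM (1.21). The *Actb* and *Actg1* counts are uncertain, because 39.8% and 97.6% of the 31-base words of their transcripts occur elsewhere in the genome, and the handling of such reads is not given in the sources used here.

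Smooth muscle *Myh11* made up 61.4% of myosin heavy chain RPKM in WT and 23.2% in *Igfbp7*-/-. The nonmuscle heavy chain gene *Myh9* was at 577 RPM in WT and 1194 RPM in *Igfbp7*-/- (log2 ratio 1.05), and *Myh14*, a further nonmuscle form, was at 3.32 and 27.6 RPM (3.02). Of the 31-base words of *Myh11* and *Myh9*, 1.05% and 1.92% occur elsewhere in the genome as exact matches, and *Myh14* was not examined in this way. Among regulatory light chains, *Myl9* made up 88.5% of the summed RPKM of *Myl9* and *Myl12b* in WT and 63.8% in *Igfbp7*-/-. The paralog *Myl12a* was not found by its symbol and is missing from this sum.

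Within the calponins, *Cnn1* made up 29.6% in WT and 8.87% in *Igfbp7*-/-, while *Cnn3* was itself lower in *Igfbp7*-/- (279 and 136 RPM, log2 ratio -1.04) and *Cnn2* was at 56.7 and 51.2 RPM (-0.15). *Tagln* made up 25.5% of the transgelins in WT and 17.7% in *Igfbp7*-/-. In the tropomyosins the share of *Tpm2* was 5.34% in WT and 5.15% in *Igfbp7*-/-, and *Tpm1*, which smooth muscle also expresses (675 and 281 RPM, log2 ratio -1.27), and *Tpm4* (592 and 333 RPM, -0.83) were lower as well, so this is not a share of smooth muscle against nonmuscle forms. The striated muscle forms of these families were near 0, with 16 reads in WT and 4 in *Igfbp7*-/- for *Acta1* and 2 and 0 reads for *Actc1*. *Avpr1a*, the vasopressin receptor gene most often compared with *Oxtr*, was at 27.3 RPM in WT and 10.5 RPM in *Igfbp7*-/- (log2 ratio -1.37), opposite in sign to *Oxtr*. Of the 24 paralogs listed, 23 were found and 13 passed the minimum of 1 RPM. Of these 13, 4 were higher, 5 lower and 4 within 1.5 times, with a median log2 ratio of -0.10. Their shares were 30.8% higher and 38.5% lower, against 21.4% and 23.0% of all genes compared.

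**Figure D3:**
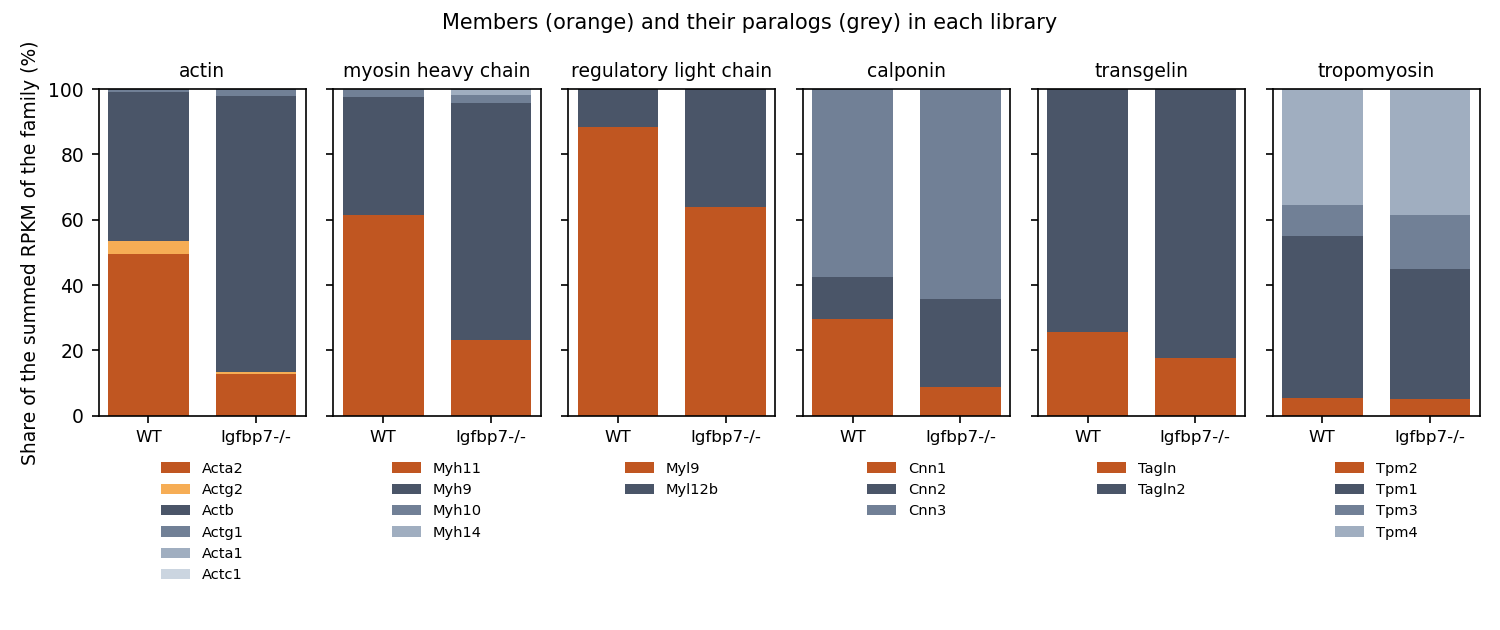
Bars are the percent of the summed RPKM of each family in the WT and Igfbp7-/- libraries, with the genes described here in orange and their paralogs in grey. The regulatory light chains are Myl9 and Myl12b only. The orange part is smaller in Igfbp7-/- for actin (53.5% and 13.3%) and myosin heavy chain (61.4% and 23.2%) and about as large for tropomyosin (5.34% and 5.15%).

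Other genes of the smooth muscle contractile and cytoskeletal apparatus gave a smaller difference as a group. Of 22 such genes, 8 were lower by at least 1.5 times, none higher and 14 within, with a median log2 ratio of -0.34. The share lower was 36.4%, against 23.0% lower and 21.4% higher among all genes compared. Lowest among those of 10 RPM or more were *Cald1*, which encodes the actin-binding protein caldesmon (931 RPM in WT and 372 RPM in *Igfbp7*-/-, log2 ratio -1.32), *Tpm1*, and *Itga1*, an integrin subunit that binds collagen (43.0 and 18.9 RPM, -1.18). At the other end were *Lpp*, which encodes a focal adhesion protein (355 and 462 RPM, 0.38), *Fhl1* (20.4 and 22.2 RPM, 0.12) and *Myl6*, the essential light chain (36.9 and 39.1 RPM, 0.09), whose count is uncertain since 89.9% of its 31-base words occur elsewhere in the genome.

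The path from oxytocin to contraction, listed as 32 genes without *Oxtr*, had no common direction. Of the 30 genes with at least 1 RPM, 8 were higher, 5 lower and 17 within 1.5 times, with a median log2 ratio of -0.02. These shares, 26.7% higher and 16.7% lower, were near the 21.4% and 23.0% of all genes compared. Oxytocin itself (*Oxt*), made in the hypothalamus, had 2 reads in WT and 1 in *Igfbp7*-/-. *Rgs2*, which encodes an inhibitor of Gq signalling, had the lowest ratio (162 RPM in WT and 38.6 RPM in *Igfbp7*-/-, log2 ratio -2.07), followed by *Cd38*, which makes the calcium messenger cyclic ADP-ribose (24.7 and 8.51 RPM, -1.53), and the phospholipase gene *Plcb1* (30.0 and 13.8 RPM, -1.11). The highest ratios among genes with at least 10 RPM were those of *Lnpep*, which encodes the oxytocin-cleaving peptidase oxytocinase (43.8 and 94.4 RPM, 1.11), *Arhgef11*, an activator of RhoA (20.9 and 39.2 RPM, 0.90), and *Itpr3*, a calcium release channel (49.1 and 87.4 RPM, 0.83).

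Regulators of smooth muscle transcription had no common direction. Of 8 regulators with at least 1 RPM, 4 were higher, 2 lower and 2 within 1.5 times, with a median log2 ratio of 0.21. With edgeR or DESeq2 scaling only 2 were higher, a share near that of all genes. *Srf* was at 42.9 RPM in WT and 124 RPM in *Igfbp7*-/- (log2 ratio 1.54), and *Klf4*, a repressor of smooth muscle genes, at 93.1 and 155 RPM (0.73). The SRF coactivator genes went apart, with *Mkl1* at 72.7 and 36.5 RPM (log2 ratio -0.99) and *Mkl2* at 62.7 and 95.4 RPM (0.60). *Elk3*, an SRF partner of the ETS family, was at 21.0 and 6.17 RPM (log2 ratio -1.75). *Myocd*, the coactivator of cardiac and vascular smooth muscle, had 0 reads in WT and 6 in *Igfbp7*-/-. Among the promoter windows described above, those with CArG matches belonged to *Acta2* (log2 ratio -2.21), *Myl9* (-2.20) and *Lmod1* (-0.50). Those without belonged to *Cnn1* (-2.93), *Mylk* (-1.92), *Tpm2* (-0.99) and *Oxtr* (0.21). Of these, the *Mylk* and *Oxtr* windows and most of the *Tpm2* window lay inside the annotated gene. A relation between CArG matches and the ratios was not tested.

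Markers of the basal layer other than contractile genes were examined for the myoepithelial label. *Krt5* and *Krt14*, the keratins of basal cells, were present in both libraries, at 579 and 326 RPM in WT and 182 and 148 RPM in *Igfbp7*-/- (log2 ratios -1.67 and -1.13). Of 14 basal markers, 8 were lower, 1 higher and 5 within 1.5 times, with a median log2 ratio of -0.98. The shares were 57.1% lower and 7.14% higher, against 23.0% and 21.4% of all genes compared. *Trp63*, which encodes the basal transcription factor p63, had the lowest ratio (66.1 and 16.6 RPM, log2 ratio -1.99), and the integrin gene *Itgb4* the highest (29.9 and 87.9 RPM, 1.55). The summed RPM of *Krt5* and *Krt14* was 2.74 times lower in *Igfbp7*-/- (905 and 331 RPM), so the basal keratins moved with the contractile genes, and their part in that difference was not tested.

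Expressed per summed RPM of *Krt5* and *Krt14*, the contractile genes no longer differed in 1 direction. The log2 difference of this ratio between *Igfbp7*-/- and WT was -1.51 for *Actg2*, -1.49 for *Cnn1*, -0.76 for *Acta2*, -0.75 for *Myl9* and -0.47 for *Mylk*. It was near 0 for *Myh11* (0.09) and *Tagln* (0.17), and above 0 for *Tpm2* (0.46), *Lmod1* (0.95) and *Oxtr* (1.66). Thus 5 of the 10 genes were below and 5 above the basal keratins, with a median of -0.19. Per summed RPM of all 14 basal markers (3619 RPM in WT and 2431 RPM in *Igfbp7*-/-), 8 genes were below, *Lmod1* (0.07) and *Oxtr* (0.78) were above, and the median was -1.07. That sum was carried in large part by *Itgb1* (761 and 694 RPM), *Dst* (677 and 520 RPM) and *Egfr* (407 and 366 RPM), so it was less reduced (log2 ratio -0.57) than the median marker (-0.98). The placement of *Myh11*, *Tagln* and *Tpm2* therefore depended on which basal markers were taken as reference, whereas *Actg2*, *Cnn1*, *Acta2*, *Myl9* and *Mylk* were below and *Oxtr* above with either. *Lmod1* was above with *Krt5* and *Krt14*, but its value of 0.07 with all 14 markers was within counting error of 0.

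**Figure D4:**
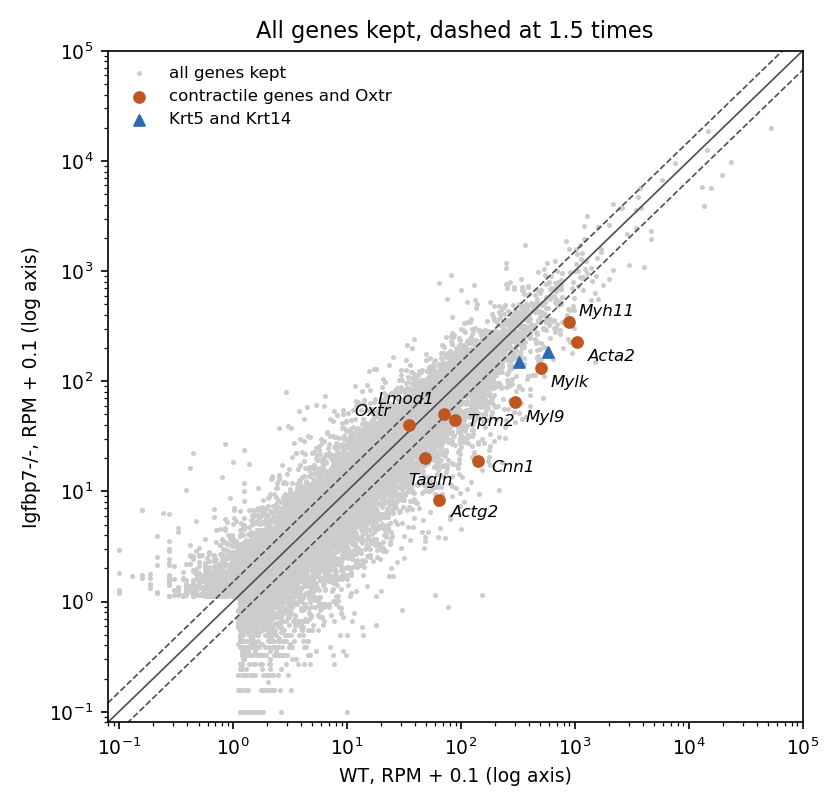
Each grey dot is 1 of the 14026 genes, with RPM + 0.1 in WT on the horizontal and in Igfbp7-/- on the vertical log axis; the solid line marks equal values, dashed lines 1.5 times, circles the 10 genes described and triangles Krt5 and Krt14. Acta2, Myl9, Mylk, Cnn1 and Actg2 lie farther below the line of equal values than both keratins, and Oxtr lies just above it.

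Contractile genes could also come from vascular smooth muscle cells, pericytes or other cells in the preparation. Of the 9 pericyte and vascular smooth muscle markers with at least 1 RPM, 7 were lower and none higher by 1.5 times, and their median log2 ratio was -0.87. Among all genes compared, 23.0% were lower and 21.4% higher. Only 5 of the markers had at least 10 RPM in either library, and 3 of those were lower. With reads on listed genes as the total, 5 markers were lower and 1 higher. The summed level of all 10 listed was 231 RPM in WT and 159 RPM in *Igfbp7*-/-. *Mcam* was at 45.7 and 12.3 RPM (log2 ratio -1.89) and *Rgs5* at 71.3 and 35.3 RPM (-1.01). In contrast, *Pdgfrb*, a pericyte receptor, was at 50.7 and 64.2 RPM (0.34) and *Abcc9* at 11.2 and 16.6 RPM (0.57). *Des*, which encodes desmin of muscle and pericytes, was at 5.04 and 2.43 RPM. The part of these cells in the values of *Acta2*, *Myh11* and the other contractile genes was not tested.

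Skeletal muscle markers were near 0, which bears on carry-over of body wall muscle. Of 14 such genes, *Ttn* alone passed 1 RPM (2.18 RPM in WT and 7.20 RPM in *Igfbp7*-/-), *Myh4* had no read in either library, and the whole list summed to 5.71 and 9.94 RPM. Of 10 fibroblast markers, 4 were lower, 1 higher and 5 within 1.5 times (median log2 ratio -0.50, summed 10694 and 5843 RPM), from *Lum* (402 and 84.1 RPM, log2 ratio -2.25) to *Fbln1* (24.3 and 36.8 RPM, 0.60). The 8 markers of the endothelial cells and leukocytes targeted by the depletion were present as well, 7 of them lower by 1.5 times and none higher (median log2 ratio -1.49, summed 1101 and 369 RPM). The endothelial genes *Cdh5* (584 and 184 RPM) and *Pecam1*, which encodes CD31 (323 and 88.9 RPM), were as much lower as several contractile genes, with log2 ratios of -1.67 and -1.86. The shares lower and higher by 1.5 times were 40% and 10% for fibroblast markers and 87.5% and 0% for endothelial and leukocyte markers. Luminal and alveolar markers, described next, had 44.4% and 33.3%, and all genes compared 23.0% and 21.4%. Of 9 luminal and alveolar markers, 3 were higher, 4 lower and 2 within 1.5 times (median log2 ratio -0.52), with the luminal keratin gene *Krt18* highest (250 and 1174 RPM, 2.23) and the milk protein gene *Wap* lowest (log2 ratio -1.83). The milk protein genes of this list were thus lower, like most contractile genes, and its keratins higher, and the part of a different mixture of cells in the lower contractile genes was not tested.

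**Figure D5:**
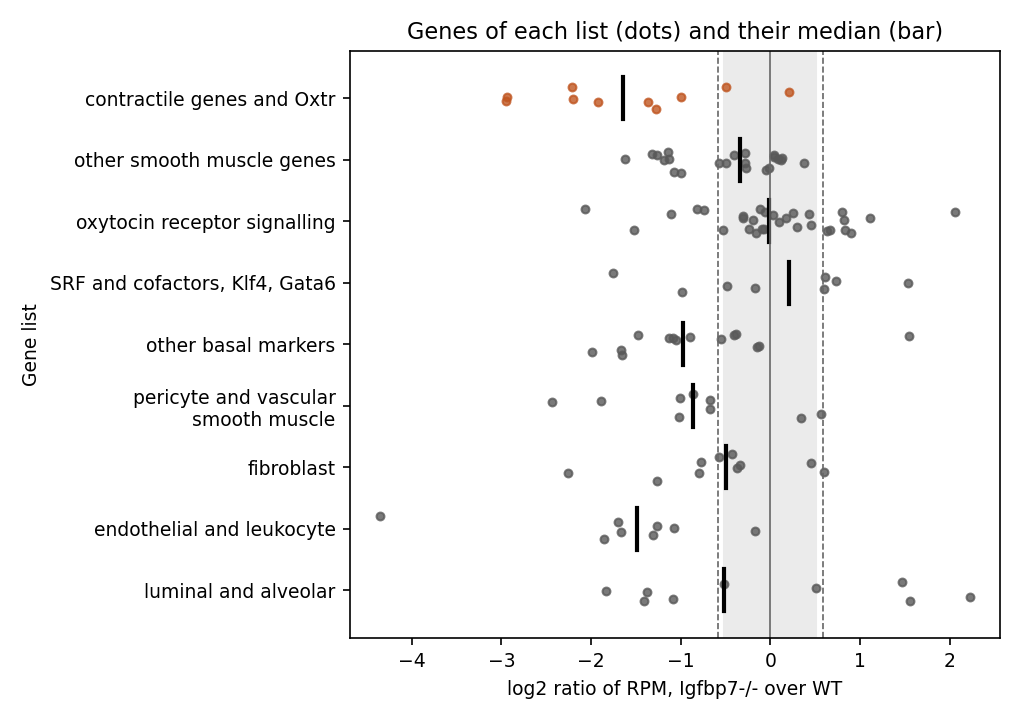
Each dot is the log2 ratio of RPM, Igfbp7-/- over WT, of 1 gene with at least 1 RPM in either library, in rows by gene list; black bars are medians, the grey band holds the middle 50% of all genes and dashed lines mark 1.5 times. The median of the 10 genes described (-1.64) lies left of those of the endothelial and leukocyte (-1.49), other basal (-0.98) and pericyte and vascular smooth muscle markers (-0.87), while oxytocin signalling (-0.02) and the regulators (0.21) lie near 0.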

How the data were processed

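MECs of lactation day 3 glands were measured by poly(A) RNA sequencing (SOLiD, paired reads of 35 and 75 bp), 1 library per genotype, with groups taken from the labels. The authors mapped the reads with a Bowtie-based pipeline (Bowtie 0.12.3 and SAMtools 0.1.15 per the submitters' processing notes) and allowed 3 mismatches. The methods state that ribosomal, mitochondrial and small nuclear RNA were filtered. In the counts used here, genes typed as ribosomal RNA still held 2.95% of mapped reads in WT and 3.15% in *Igfbp7*-/-. The labels name mm9 as the build, while the methods name a human build. The authors deposited a raw read count per gene, the count per 1000000 mapped reads (RPM) and the RPM per kilobase (RPKM). The library preparation kept strand, but gene models, whether counting used strand, and the handling of reads with several matches are not given in the sources used here.

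From these, log2 ratios of deposited RPM plus 0.1 were computed for genes with at least 1 RPM in either library, and 1.5 times was the call threshold. The 50 rows without a symbol (0.0408% and 0.0484% of reads) were left out. Since 75.8% and 74.1% of counts of 1 to 20 were even, intervals used read pairs (count divided by 2): Clopper-Pearson for ratios, Poisson for levels. In WT 3 reads equal 0.0874 RPM, and in *Igfbp7*-/- 0.0857 RPM. The members and the 10 gene lists were chosen with earlier results of these data known, so a list is described by its counts and median only. Named were all members and, per list, genes with at least 10 RPM with the 3 highest or 3 lowest ratios, not all of which are printed, besides *Igfbp7*, paralogs, and cell type markers at or near 0. *Oxt*, *Myocd*, *Krt14*, *Des* and *Dst* were named after their values had been seen. Positions and 31-base words come from NCBIM37 with Gencode genes. Python 3.11.15, pandas 2.3.3, numpy 2.4.6 and scipy 1.17.1 were used, with edgeR 4.0.16 and DESeq2 1.42.0 for scaling factors of the counts only. The script was tested on simulated counts. Alternatives were other pseudocounts, minimums, scalings and thresholds.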

Additional observations from a re-analysis of the deposited data

How the results depend on the processing

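With 1 library per genotype no replicate could be left out, and no count test or other test across genes was made. No paired analysis was possible because each genotype had 1 library and no result came from a test. Of 80 recomputed log2 ratios of the 10 genes, none changed sign, 66 stayed within their counting interval and 1 changed its call: *Lmod1* reached -0.64, past 1.5 times, with RPM recomputed without the 20 highest genes, so 9 of the 10 genes were then lower. With a threshold of 2 times 7 genes were lower, and no gene was higher under any of the alternatives tried. The median log2 ratio of the 10 genes was -1.45 with reads on listed genes as the total and -1.79 without the 20 highest genes. These scalings moved the median of all genes by 0.19 and by -0.14, and those of the 10 genes with it, and they moved the calls over all genes from 21.4% higher and 23.0% lower to 30.3% and 18.4%, and to 16.6% and 27.5%. Taken relative to all 14 basal markers in place of *Krt5* and *Krt14*, 8 genes in place of 5 were below 0. With a threshold of 2 times, 1352 of the 14026 genes were higher and 1936 lower. Of 220 counts of genes in the lists, 25 moved by over 1.5 times or changed to or from 0. Among them were the 4 higher regulators, which were 2 under edgeR and DESeq2 scaling, the median-centred ratios and without the 20 highest genes. The depth limits the 288 read count of *Actg2* most among the members.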
